A study of Mus musculus with 8 samples.

Results

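The genes of DNA replication and S phase were followed in subcutaneous MOPC tumours of mice. A list of 41 genes was drawn up by function, covering origin licensing, origin firing, the sliding clamp and its loader, the replicative polymerases and primase, Okazaki fragment maturation, nucleotide supply, G1/S control, and chromatin and histone supply. The array carried a probe set of a single gene for 40 of the 41. Chaf1a, a subunit of the chromatin assembly factor, had none and was not measured. Where a gene had several probe sets, the one with the highest mean log2(signal + 16) over 8 arrays stood for it, and all 40 were among the 12976 genes tested, out of 18194 genes with such a probe set.

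MOPC is a murine oropharyngeal carcinoma cell line. The cells were injected under the skin of C57BL/6 mice, either wildtype (WT) or lacking the endosomal receptors Tlr3, Tlr7 and Tlr9 together (Tlr3/7/9-/-, here KO), and total RNA of the tumour tissue was hybridised to Affymetrix mouse arrays. The groups were WT day 4, KO day 4, WT day 6 and KO day 6 after inoculation, with 2 arrays each. The genotype is that of the host: the injected line was the same in all 4 groups, and the deletion is carried by all host cells. The later hosts were young adults by the study's description, and the sample labels give no age. The study describes its day 6 arrays as a pilot experiment on 4 mice, 2 of each genotype. For day 4 neither the labels nor the study say which arrays come from which mouse. The p-values measure the spread between these samples, which at day 4 may be in part technical.

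DNA replication starts with licensing. The origin recognition complex, Cdc6 and Cdt1 load the Mcm2-7 helicase onto origins in G1, and Cdc45 and the GINS complex turn the helicase on in S phase under the kinases Cdc7-Dbf4 and Cdk2. Replication factor C then loads the ring of Pcna, primase and polymerase alpha lay down primers, polymerases delta and epsilon extend them, and Fen1 and Lig1 join the Okazaki fragments. Most of these genes are transcribed in a wave at the G1/S boundary, driven by E2F factors once the retinoblastoma protein releases them, so that their RNA is commonly read as a sign of cycling cells. In bulk tissue, fewer cells of a type and less RNA per cell cannot be told apart.

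The signals are on a linear scale that had been set to the same 2% trimmed mean of 1000 on every array. The medians lay between 148.9 and 175.2 at day 4 and between 133.2 and 143.7 at day 6, so that they differed with the day. Arrays of the same group had a Spearman correlation between 0.941 and 0.953 over 45101 probe sets. Tlr7 on its brightest probe set lay between 383 and 673 in WT and between 10.8 and 80.1 in KO tumours, and Tlr3 between 544 and 811 in WT and between 224 and 427 in KO tumours, while Tlr9 was dim in both, with signals between 20.8 and 138. A probe set that reads a part of the gene left in place says nothing on the genotype. The keratins Krt7, Krt8 and Krt18 were among the bright genes on all arrays (12759 to 35100), but the epithelial adhesion molecule Epcam was dim (153 to 615). Skeletal muscle genes were high on 3 arrays. Over 12 such genes the summed signal was 180891 on WT day 4 replicate 2, 27176 on KO day 4 replicate 2 and 67033 on KO day 6 replicate 2, against 1054 to 1297 on the other arrays. KO day 6 replicate 2 also held cornified skin genes (39062 over 9 genes, against 2022 to 4388 elsewhere). Xist was between 44.6 and 142 at day 4 and between 5579 and 7121 at day 6, with Eif2s3y the reverse (798 to 1177 and 10.2 to 33.0). The day 4 tumours thus held RNA of the Y chromosome and little Xist, and the day 6 tumours the reverse, so that day and the sex of the tissue cannot be told apart in any comparison between the days.

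The first comparison asks how tumours of the later day differed from those of the earlier day. The replication genes were higher at day 6. Over both genotypes together, 36 of the 40 rose and 0 fell by limma (adjusted p under 0.05), where 13.6% of all tested genes rose and 9.56% fell. Their median log2 fold change was 0.96, with a range from 0.22 to 1.52, against a median of 0.00 over all tested genes. In WT hosts 29 of the 40 rose and 0 fell, against 4.16% and 1.66% of all genes, with a median of 1.10 and a range from 0.23 to 1.98. In KO hosts 15 rose and 0 fell, against 3.71% and 2.52% of all genes, with a median of 0.77 and a range from 0.022 to 1.38. Without limma's trend of the variance on the mean the counts were 0 in each genotype, as they were with the methods' t-test adjusted by Benjamini-Hochberg, and with only the compared groups in the fit they were 0 in WT and 30 in KO hosts. The share of all tested genes called in that last fit is not given here. The estimates were above 0 for all 40 genes in each genotype, but averaging a gene over all its probe sets put them below 0 for Orc1, Cdc45, Pola2 and E2f1 in WT and for E2f1 and Slbp in KO hosts. The comparisons within WT and within KO hosts share the pooled estimate of the spread but no array. With every array centred on its median, the median of all tested genes over both genotypes moved to 0.17 and that of the replication genes to 1.14, and the calls over all genes to 3323 higher and 589 lower, from 1765 and 1241.

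**Figure D1:**
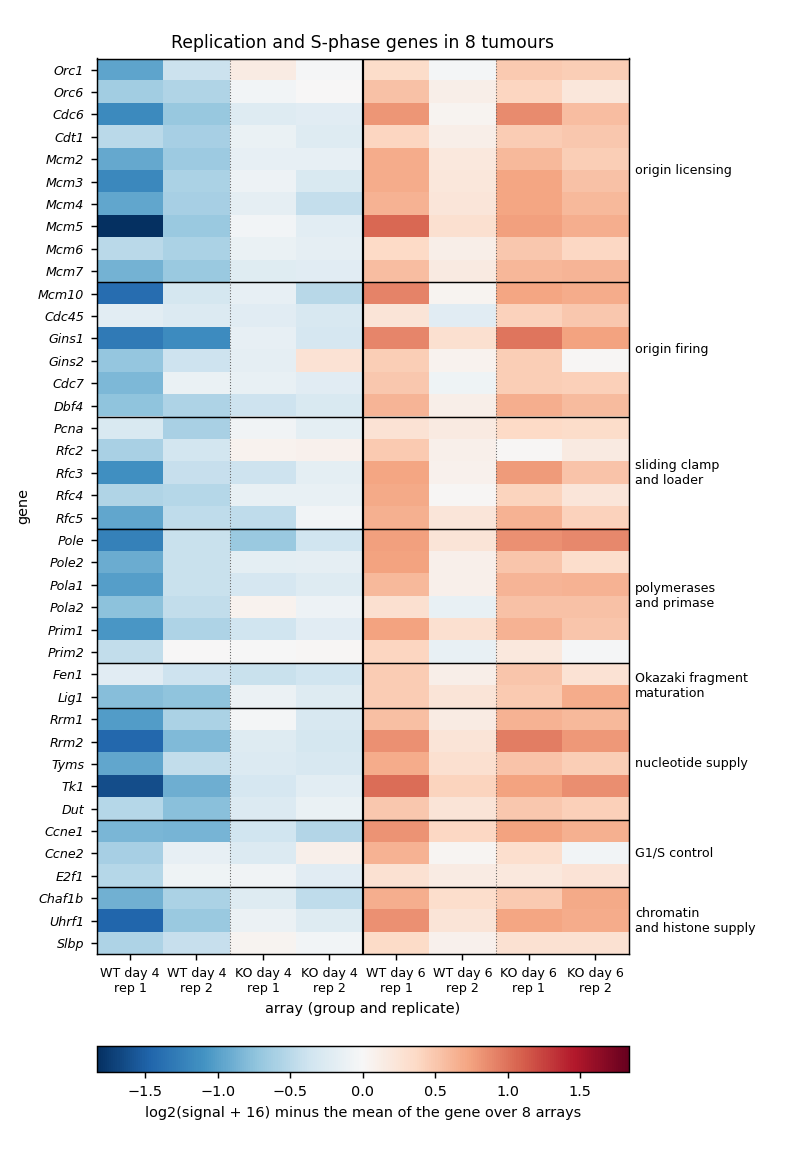
Colour gives log2(signal + 16) of each replication gene (rows, grouped by role) minus that gene's mean over 8 arrays, for each array (columns, day 4 left and day 6 right). The day 4 columns are mostly blue and the day 6 columns mostly red, WT day 4 replicate 1 is the darkest blue column with the lowest signal of 33 genes, and WT day 6 replicate 2 is paler than the other day 6 columns.

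The separation was seen array by array. In 33 of the 40 genes every day 6 array lay above every day 4 array, against 15.7% of all tested genes. The exceptions were Orc1, Cdc45, Gins2, Rfc2, Pola2, Prim2 and Ccne2. In WT tumours the day 6 arrays lay above the day 4 arrays for 38 genes (29.1% of all genes), and in KO tumours for 36 (30.7% of all genes). WT day 4 replicate 1 had the lowest signal of 33 genes and WT day 4 replicate 2 that of 5. The highest signal was on WT day 6 replicate 1 for 18 genes, on KO day 6 replicate 1 for 15 and on KO day 6 replicate 2 for 7, and on WT day 6 replicate 2 for none.

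Some markers of other cell types also moved with the day, where 13.6% of all tested genes rose and 9.56% fell over both genotypes. Of 6 endothelial markers, 2 rose over both genotypes (Pecam1 and Cdh5), with a median log2 fold change of 0.44. In WT hosts 3 did, where 4.16% of all tested genes rose, with a median of 0.92, against a median of 0.0069 in KO hosts. Their summed signals were between 4212 and 4877 in WT and between 6210 and 7749 in KO tumours at day 4, and between 7707 and 11067 in WT and between 7424 and 8477 in KO tumours at day 6. Of 5 tested T cell markers, 1 rose (Cd3d), near the share of all genes, with a median of 0.90, and the sums over 8 markers overlapped between the days. Of 10 fibroblast markers, 1 rose (Pdgfrb), near the share of all genes, and 4 fell (Dcn, Lum, Pdgfra and Fap), with a median of −0.30. Among 8 macrophage markers 1 rose (Fcgr1) and 1 fell (Adgre1), and 0 passed of 6 leukocyte, 5 neutrophil and 4 adipocyte markers. The part of these cells in the result was not tested.

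The counts within a genotype depend on single arrays. In WT hosts the count of 29 became 0 when WT day 6 replicate 1 was left out, 17 when WT day 4 replicate 1 was, and 2 without either KO day 4 array, which enter only the estimate of the spread. In KO hosts the count of 15 became 0 without any one of the KO arrays and 23 without either WT day 4 array. The median fold changes moved less, between 0.87 and 1.33 in WT and between 0.72 and 0.80 in KO hosts. Over both genotypes the count stayed between 27 and 37. Without the 3 arrays with muscle or skin genes it was 23, with a median of 1.03, and within the genotypes the counts were then 11 in WT and 0 in KO hosts.

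Parts of the promoters of some of these genes are shown for a letter pattern that they hold, the E2F motif. In the RefSeq table of the assembly GRCm38.p6, 34 of the 41 genes had a promoter entry, from 250 bases before to 50 after the start. Mcm4, Ccne2, Pole, Rfc2, Gins2, Gins1 and Prim2 had no entry. The E2F motif was searched as TTTCCCGC, TTTGGCGC, TTTCGCGC or TTTGCCGC on both strands, and matches may overlap. The lines give part of the upstream sequence of 6 genes in the direction of transcription, 5′ to 3′, with the matches in capitals. They cover the origin recognition and loading factors Orc1 and Cdc6, the helicase subunits Mcm5 and Mcm6, the catalytic subunit of polymerase alpha, Pola1, and the clamp loader subunit Rfc3.
Orc1 (chr4:108579397-108579453, plus strand): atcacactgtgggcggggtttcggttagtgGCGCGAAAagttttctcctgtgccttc
Cdc6 (chr11:98907983-98908050, plus strand): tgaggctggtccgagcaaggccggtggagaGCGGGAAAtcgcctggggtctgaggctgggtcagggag
Mcm5 (chr8:75109326-75109397, plus strand): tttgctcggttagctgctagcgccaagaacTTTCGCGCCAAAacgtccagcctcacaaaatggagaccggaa
Mcm6 (chr1:128359715-128359845, minus strand): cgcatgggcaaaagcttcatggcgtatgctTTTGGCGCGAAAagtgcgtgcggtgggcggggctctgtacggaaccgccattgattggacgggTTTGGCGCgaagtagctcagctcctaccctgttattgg
Pola1 (chrX:93632256-93632323, minus strand): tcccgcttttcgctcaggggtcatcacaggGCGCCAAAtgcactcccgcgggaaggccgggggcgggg
Rfc3 (chr5:151651209-151651248, minus strand): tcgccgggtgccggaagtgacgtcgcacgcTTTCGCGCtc
In Mcm5, and at the first site of Mcm6, a match on one strand overlaps a match on the other.

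An E2F motif was present in 12 of the 34 promoters, 35.3%, against 4.48% of the 10454 tested genes with a promoter entry and 2.6% of the whole table. There were 18 matches in these 12 promoters, 11 of them upstream of the start, and 5 genes had more than 1. The CCAAT box, searched as CCAAT on both strands, was in 52.9% of the 34, against 42.5% of tested genes. The cell cycle homology region, an element of mitotic promoters searched as TTTGAA on both strands, was in 14.7%, against 14.4% of tested genes. These shares are a description. The median log2 fold change from day 4 to day 6 over both genotypes was 0.99 in the 12 genes with the E2F motif and 0.96 in the 21 measured genes whose promoter entry had none.

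**Figure D2:**
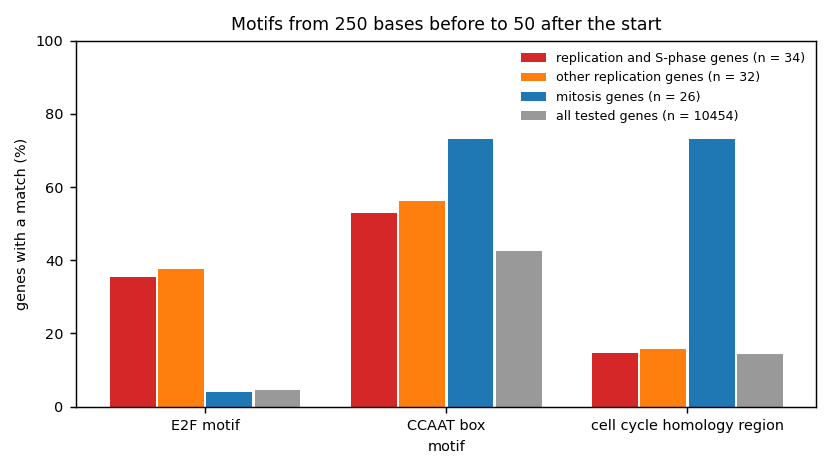
Bars give the share of genes (%, axis from 0 to 100) whose promoter entry holds each motif, for replication and S-phase genes, other replication genes, mitosis genes and all tested genes. The E2F motif is in 35.3% and 37.5% of the replication lists and 3.85% of the mitosis genes, and the cell cycle homology region in 14.7%, 15.6% and 73.1%.

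Of the 10 licensing genes, 9 rose over both genotypes, 9 in WT and 4 in KO hosts, where 13.6%, 4.16% and 3.71% of all tested genes rose. Mcm7, a subunit of the Mcm2-7 helicase, had signals of 3806 and 4352 in WT and 6013 and 6062 in KO tumours at day 4, and 10387 and 7850.3 in WT and 10678 and 10834 in KO tumours at day 6 on probe set 1438320_s_at. All day 6 signals were above all day 4 signals, and KO tumours were above WT tumours at day 4. It rose in WT (log2 fold change 1.15, standard error 0.15, adjusted p = 0.0154 from limma) and KO hosts (log2 fold change 0.83, standard error 0.15, adjusted p = 0.0249).

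Mcm5, whose promoter is shown above, had the steepest rise of the licensing genes over both genotypes (log2 fold change 1.38, standard error 0.25, adjusted p = 0.00804 from limma). Its signals were 919.9 and 2067 in WT and 3214 and 2892 in KO tumours at day 4, and 6927 and 4084 in WT and 5611 and 5279.7 in KO tumours at day 6 (probe set 1436808_x_at). WT day 4 replicate 1 stood far below the other day 4 arrays, and the WT day 6 arrays were apart by more than the KO day 6 arrays. It rose in WT (log2 fold change 1.93, standard error 0.35, adjusted p = 0.0242 from limma) and did not pass in KO hosts (log2 fold change 0.83, standard error 0.35, adjusted p = 0.182).

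Mcm4 and Mcm6 are further subunits of the same ring. Mcm4 had signals of 2508 and 3189.9 in WT and 4332 and 3611 in KO tumours at day 4, and 7611 and 5703 in WT and 8061 and 7361 in KO tumours at day 6 (probe set 1416214_at). Mcm6 had signals of 5221 and 4943 in WT and 6774 and 6602 in KO tumours at day 4, and 9477 and 7958 in WT and 10424 and 9569 in KO tumours at day 6 (probe set 1416251_at). Neither gene overlapped between the days. Mcm4 rose in WT (log2 fold change 1.22, standard error 0.18, adjusted p = 0.0179 from limma) and KO hosts (log2 fold change 0.96, standard error 0.18, adjusted p = 0.028), as did Mcm6 by less (log2 fold change 0.77, standard error 0.12, adjusted p = 0.0186 in WT and log2 fold change 0.58, standard error 0.12, adjusted p = 0.035 in KO hosts).

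Mcm2, the subunit whose tail also binds histones, had signals of 1290.1 and 1548 in WT and 2225 and 2228 in KO tumours at day 4, and 3969 and 2838 in WT and 3759 and 3394 in KO tumours at day 6 (probe set 1448777_at). The KO day 4 arrays were nearly equal and lay between the WT day 4 and the day 6 arrays. Limma called it higher at day 6 in WT hosts (log2 fold change 1.24, standard error 0.18, adjusted p = 0.0169) and missed the threshold in KO hosts (log2 fold change 0.68, standard error 0.18, adjusted p = 0.0573). Mcm3 did likewise, with a log2 fold change of 1.33 in WT (adjusted p = 0.0212 from limma) and 0.82 in KO hosts (adjusted p = 0.0628). For Mcm2 the order of the genotypes depended on the probe set. Its other probe set, also above the expression limit, had the larger difference of mean log2 between the days in KO hosts.

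Cdt1, which brings the helicase to origins and is destroyed as S phase starts, had signals of 2914 and 2711 in WT and 3787 and 3493 in KO tumours at day 4, and 5402 and 4462 in WT and 5697 and 5837 in KO tumours at day 6 (probe set 1424143_a_at). The days did not overlap, and at day 4 the 2 arrays of each group lay close together. The rise passed in both WT (log2 fold change 0.80, standard error 0.13, adjusted p = 0.0197 from limma) and KO hosts (log2 fold change 0.66, standard error 0.13, adjusted p = 0.0306). Cdc6, its partner in loading, was 236.9 and 338 in WT and 467 and 479 in KO tumours at day 4, and 984 and 577 in WT and 1021 and 830.3 in KO tumours at day 6, and rose in WT hosts (adjusted p = 0.0312 from limma, against 0.0793 in KO hosts). Of the origin recognition complex, Orc6 rose in WT (log2 fold change 0.91, standard error 0.16, adjusted p = 0.0239 from limma) and Orc1, the dimmest of the licensing genes, did not pass over both genotypes (log2 fold change 0.62, standard error 0.19, adjusted p = 0.0512).

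Of the 6 genes of origin firing, 5 rose over both genotypes (13.6% of all tested genes). Gins1 and Dbf4 rose in each genotype alone (4.16% of all tested genes in WT and 3.71% in KO hosts). Gins1, a subunit of the GINS complex that activates the helicase, had signals of 334 and 372 in WT and 763 and 677 in KO tumours at day 4, and 1586 and 1045 in WT and 1679 and 1424 in KO tumours at day 6 (probe set 1452598_at). The WT day 4 arrays were the lowest, the KO day 4 arrays lay above them at a mean of 719.8 against 353, and the day 6 arrays were highest. Limma gave a rise in WT (log2 fold change 1.82, standard error 0.21, adjusted p = 0.0132) and in KO hosts (log2 fold change 1.09, standard error 0.21, adjusted p = 0.0325).

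Dbf4, the activating subunit of the Cdc7 kinase, had signals of 1967 and 2224 in WT and 2531 and 2723 in KO tumours at day 4, and 5078 and 3557 in WT and 5225 and 4934 in KO tumours at day 6 (probe set 1418334_at). Day 4 and day 6 were apart in both genotypes. Day 6 was higher in WT (log2 fold change 1.02, standard error 0.17, adjusted p = 0.0217 from limma) and in KO hosts (log2 fold change 0.95, standard error 0.17, adjusted p = 0.0254). Its partner Cdc7 passed over both genotypes (log2 fold change 0.65, standard error 0.19, adjusted p = 0.0423 from limma), as did the initiation factor Mcm10 (log2 fold change 1.19, standard error 0.27, adjusted p = 0.0165). A second probe set of Cdc7 above the expression limit had differences of mean log2 of −0.22 in WT, 0.15 in KO and −0.036 over both genotypes.

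Cdc45, the remaining part of the active helicase, had signals of 528 and 509 in WT and 523 and 490.5 in KO tumours at day 4, and 714 and 522 in WT and 821 and 863 in KO tumours at day 6 (probe set 1416575_at). WT day 6 replicate 2 lay within the range of the day 4 arrays and all other day 6 arrays above it. It rose over both genotypes (log2 fold change 0.47, standard error 0.13, adjusted p = 0.0357 from limma), but the mean of all its probe sets gave a log2 fold change of −0.23. In WT hosts it had a log2 fold change of 0.23 (95% confidence interval −0.20 to 0.66). Gins2 did not pass over both genotypes (log2 fold change 0.50, standard error 0.16, adjusted p = 0.0574 from limma).

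The 5 genes of the sliding clamp and its loader rose over both genotypes and in WT hosts, and 0 of them passed in KO hosts. The shares of all tested genes that rose were 13.6%, 4.16% and 3.71%. All 5 estimates were above 0 in KO hosts, with a median of 0.47. Rfc3, a clamp loader subunit whose promoter is shown above, had signals of 557 and 914 in WT and 939.6 and 1088 in KO tumours at day 4, and 2047 and 1306 in WT and 2127 and 1776 in KO tumours at day 6 (probe set 1432538_a_at). WT day 4 replicate 1 was the lowest and WT day 6 replicate 2 the lowest of day 6, without overlap between the days. Limma called it higher at day 6 in WT hosts (log2 fold change 1.18, standard error 0.27, adjusted p = 0.0443), and in KO hosts its estimate was 0.93 (adjusted p = 0.0783).

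Pcna, the clamp that tethers the polymerases, was by far the brightest of the 40 genes, with signals between 12510 and 18252 at day 4 and between 21293 and 24438 at day 6. It had a log2 fold change of 0.65 in WT (adjusted p = 0.0285 from limma) and 0.47 in KO hosts (adjusted p = 0.0654). On the probe sets used, Rfc2 differed most between the genotypes in this group, with log2 fold changes of 0.76 in WT (adjusted p = 0.0376 from limma) and 0.022 in KO hosts (adjusted p = 0.949), but the difference between them did not pass (adjusted p = 0.995). The other probe sets of Rfc2, both above the expression limit, gave the opposite order, with differences of mean log2 of 0.48 and 0.32 in WT and 0.60 and 0.40 in KO hosts.

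Of the 6 genes of polymerases and primase, 5 rose over both genotypes, 4 in WT and 2 in KO hosts (13.6%, 4.16% and 3.71% of all tested genes). Pole, the catalytic subunit of polymerase epsilon of the leading strand, had signals of 258 and 472 in WT and 389 and 489 in KO tumours at day 4, and 1082 and 751 in WT and 1147 and 1182 in KO tumours at day 6 (probe set 1448650_a_at). WT and KO arrays overlapped at day 4, and KO lay above WT at day 6. It rose in WT (log2 fold change 1.33, standard error 0.29, adjusted p = 0.0384 from limma) and by the most of the 40 genes in KO hosts (log2 fold change 1.38, standard error 0.29, adjusted p = 0.0354).

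Pola2, the accessory subunit of polymerase alpha, had signals of 536 and 668 in WT and 954 and 858 in KO tumours at day 4, and 1132 and 833 in WT and 1334 and 1333 in KO tumours at day 6 (probe set 1448369_at). WT day 6 replicate 2 lay below the KO day 4 arrays. It rose over both genotypes (log2 fold change 0.62, standard error 0.13, adjusted p = 0.0144 from limma) and passed in neither genotype alone (adjusted p = 0.0697 in WT and 0.113 in KO hosts). In WT hosts the mean of all its probe sets gave a log2 fold change of −0.10.

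The other subunit of polymerase alpha shown above, Pola1, rose in WT hosts (log2 fold change 1.06, standard error 0.23, adjusted p = 0.0371 from limma) and had a log2 fold change of 0.90 in KO hosts (adjusted p = 0.0553). Pole2, the second subunit of polymerase epsilon, rose in WT hosts (log2 fold change 1.08, adjusted p = 0.0384 from limma). Of the primase subunits, Prim1, the catalytic one, rose in WT (log2 fold change 1.34, standard error 0.20, adjusted p = 0.0179 from limma) and KO hosts (log2 fold change 0.86, standard error 0.20, adjusted p = 0.0464). On the probe set used, Prim2 had the smallest estimate of the 40 genes over both genotypes (log2 fold change 0.22, standard error 0.15, adjusted p = 0.336 from limma). Another probe set of Prim2 above the expression limit had differences of mean log2 of 0.66 in WT and 0.59 in KO hosts.

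Lig1, the ligase that seals Okazaki fragments, had signals of 1636 and 1695 in WT and 2610.2 and 2401 in KO tumours at day 4, and 3912 and 3327 in WT and 3968 and 4538 in KO tumours at day 6 (probe set 1416641_at). Each group held apart from the others, in the order WT day 4, KO day 4, WT day 6, KO day 6. It rose in WT (log2 fold change 1.11, standard error 0.13, adjusted p = 0.0132 from limma) and KO hosts (log2 fold change 0.76, standard error 0.13, adjusted p = 0.0249). Fen1, the nuclease that trims the fragments before ligation, rose in KO hosts (log2 fold change 0.78, standard error 0.16, adjusted p = 0.0345 from limma) and missed the threshold in WT hosts (log2 fold change 0.58, standard error 0.16, adjusted p = 0.0683), the reverse of the 15 genes that passed in WT and not in KO hosts. Another probe set of Fen1 above the expression limit gave the opposite order, with differences of mean log2 of 1.56 in WT and 1.11 in KO hosts.

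All 5 genes of nucleotide supply rose over both genotypes, 4 in WT and 3 in KO hosts (13.6%, 4.16% and 3.71% of all tested genes). Rrm2, the regulated subunit of ribonucleotide reductase, had signals of 2219 and 3439.7 in WT and 5157 and 4837 in KO tumours at day 4, and 10883 and 7131 in WT and 11648 and 10525 in KO tumours at day 6 (probe set 1434437_x_at). WT day 4 replicate 1 was lowest, WT day 6 replicate 2 lowest of its day, and the days did not overlap. The rise passed in both WT (log2 fold change 1.67, standard error 0.24, adjusted p = 0.0169 from limma) and KO hosts (log2 fold change 1.15, standard error 0.24, adjusted p = 0.0348). Its partner subunit Rrm1 rose as well, with log2 fold changes of 1.15 in WT (adjusted p = 0.0208 from limma) and 0.78 in KO hosts (adjusted p = 0.0481).

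Tk1, the thymidine kinase of S phase, had signals of 735 and 1237 in WT and 1868 and 2016 in KO tumours at day 4, and 4746 and 3074 in WT and 3885 and 4199 in KO tumours at day 6 (probe set 1416258_at). The KO day 4 arrays lay above the WT day 4 arrays and below all day 6 arrays. It had the largest estimate of the 40 genes over both genotypes (log2 fold change 1.52, standard error 0.19, adjusted p = 0.00266 from limma) and in WT hosts (log2 fold change 1.98, standard error 0.26, adjusted p = 0.0169), and in KO hosts it missed the threshold (log2 fold change 1.05, standard error 0.26, adjusted p = 0.0526).

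Dut, the dUTPase that keeps uracil out of DNA, had signals of 3347 and 2830.0 in WT and 4077 and 4437 in KO tumours at day 4, and 6809 and 5725 in WT and 6823 and 6574 in KO tumours at day 6 (probe set 1419270_a_at). The days did not overlap, and KO lay above WT at day 4. Limma gave a rise in WT (log2 fold change 1.02, standard error 0.13, adjusted p = 0.0169) and in KO hosts (log2 fold change 0.65, standard error 0.13, adjusted p = 0.0346). A dimmer probe set of Dut, above the expression limit, gave the opposite order of the genotypes. Its differences of mean log2 between the days were 0.82 in WT and 1.28 in KO hosts, and that of KO from WT at day 4 was −0.49. Tyms, thymidylate synthase, was the dimmest of the 40 genes, between 82 and 144 at day 4 and between 216 and 288 at day 6, so that log2(signal + 16) understates its change. It rose over both genotypes (log2 fold change 0.97, standard error 0.21, adjusted p = 0.0137 from limma).

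Ccne1, the cyclin that activates Cdk2 at the G1/S boundary, had signals of 414 and 412 in WT and 579.8 and 516 in KO tumours at day 4, and 1354 and 982 in WT and 1265 and 1198 in KO tumours at day 6 (probe set 1441910_x_at). The WT day 4 arrays were nearly equal, and the lowest day 6 signal was well above the highest day 4 signal. Day 6 was higher in WT (log2 fold change 1.45, standard error 0.18, adjusted p = 0.0154 from limma) and in KO hosts (log2 fold change 1.15, standard error 0.18, adjusted p = 0.0211). Its paralog Ccne2 did not pass over both genotypes (log2 fold change 0.47, standard error 0.18, adjusted p = 0.0908 from limma). E2f1, an activating E2F factor, rose over both genotypes (log2 fold change 0.44, standard error 0.12, adjusted p = 0.0297 from limma), but a second probe set of E2f1 above the expression limit had an estimate of −0.30, and the mean of all its probe sets gave −0.16.

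Uhrf1, which brings maintenance methylation to newly replicated DNA, had signals of 726 and 1255 in WT and 1880.3 and 1705 in KO tumours at day 4, and 3619.5 and 2376 in WT and 3329 and 3252 in KO tumours at day 6 (probe set 1415810_at). The KO day 4 arrays lay between the WT day 4 and the day 6 arrays. Its rise passed in WT hosts (log2 fold change 1.60, standard error 0.27, adjusted p = 0.0212 from limma) and missed the threshold in KO hosts (log2 fold change 0.87, standard error 0.27, adjusted p = 0.085). Chaf1b, a subunit of the chromatin assembly factor, rose in WT (log2 fold change 1.22, standard error 0.20, adjusted p = 0.0205 from limma) and KO hosts (log2 fold change 0.94, standard error 0.20, adjusted p = 0.0355). Slbp, which binds the stem-loop of histone mRNA, rose in WT hosts (log2 fold change 0.72, standard error 0.13, adjusted p = 0.0234 from limma) and had a log2 fold change of 0.29 in KO hosts (adjusted p = 0.198).

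**Figure D3:**
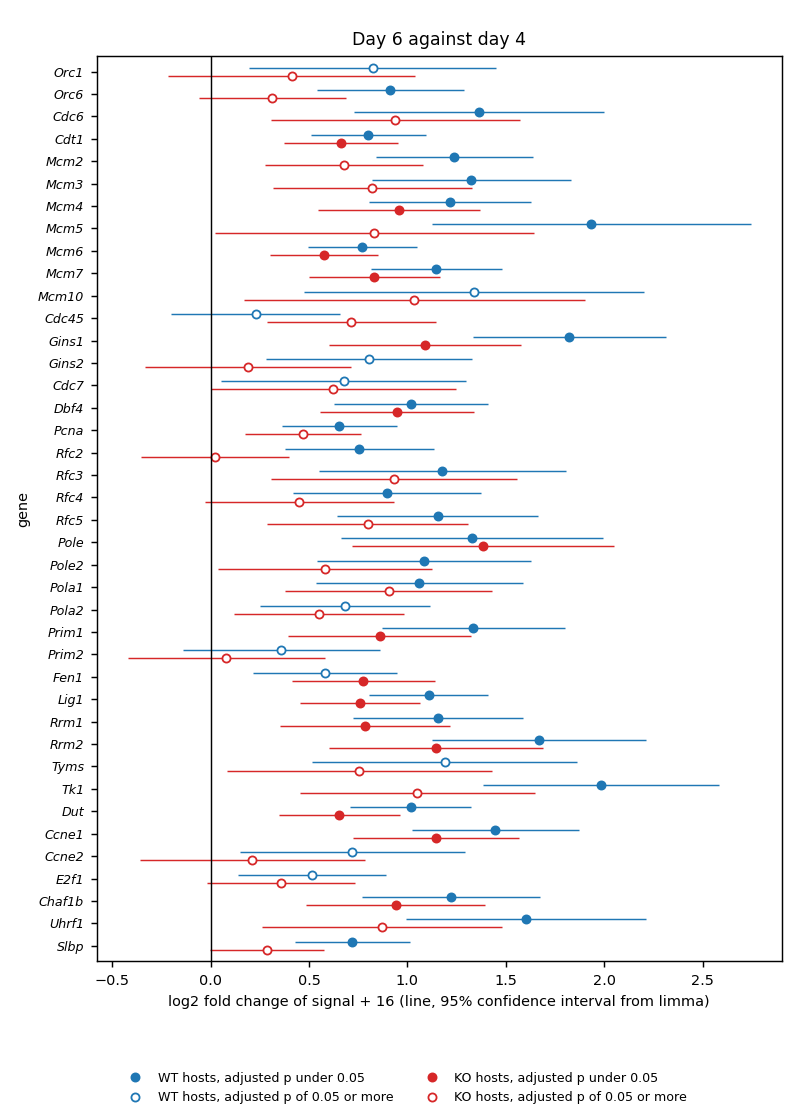
Points give the log2 fold change of signal + 16 from day 4 to day 6 in WT (blue) and KO (red) hosts for each replication gene, lines the 95% confidence interval from limma, and filled points an adjusted p under 0.05. All estimates are above 0, 29 points are filled in WT and 15 in KO hosts, and the WT estimate is the larger for 37 genes.

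In all, 14 genes rose in both genotypes, 15 passed in WT and not in KO hosts, 1 passed in KO and not in WT hosts, and 10 passed in neither alone. The estimate was smaller in KO than in WT hosts for 37 of the 40. Of all tested genes, 45.9% had the larger estimate in KO hosts. The exceptions among the 40 were Cdc45, Pole and Fen1 (the last on the probe set used and not on its other one). Some other probe sets above the expression limit had the larger difference in KO hosts, namely of Orc1, Mcm2, Mcm5, Cdc7, Rfc2 and Dut. The difference between the genotypes was tested directly as the interaction of genotype and day. None of the 40 passed, and neither did any other gene (0% of all tested genes, smallest adjusted p of the 40 genes 0.995 from limma). At an unadjusted p under 0.05 it was negative for 5 of the 40, against 2.34% of all tested genes, and the median was −0.36, against −0.028 over all tested genes. A difference of the rise between the genotypes was thus not detectable with 2 arrays a group, and a gene that passed in WT and not in KO hosts is not shown to differ between them.

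The second comparison asks whether the tumours of hosts without the receptors differed from those of WT hosts on the same day. At day 4 the replication genes were mostly higher in KO tumours, but 0 of the 40 passed limma's test, where 0.0154% of all tested genes did. The estimate was above 0 for 38 of the 40, with a median log2 fold change of 0.49 and a range from −0.096 to 1.13, against a median of 0.01 over all genes. The smallest adjusted p was 0.435, of Gins1. At an unadjusted p under 0.05, 23 of the 40 were higher and 0 lower, against 3.85% of all tested genes that were higher. Both KO arrays lay above both WT arrays for 32 of the 40, against 19.6% of all genes, and below them for 0, against 16.8%.

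The largest estimates at day 4 were those of Mcm5, Tk1, Gins1 and Uhrf1. Mcm5 went from 919.9 and 2067 in WT to 3214 and 2892 in KO tumours (log2 fold change 1.13, standard error 0.35, adjusted p = 0.548 from limma), and Tk1 from 735 and 1237 to 1868 and 2016 (log2 fold change 1.01, standard error 0.26, adjusted p = 0.466). Gins1 went from 334 and 372 to 763 and 677 (log2 fold change 0.996, standard error 0.21, adjusted p = 0.435 from limma) and Uhrf1 from 726 and 1255 to 1880.3 and 1705 (log2 fold change 0.90, standard error 0.27, adjusted p = 0.53). In each of these genes the KO arrays lay close together and above both WT arrays, which were themselves apart, except in Gins1. Cdc45 and Fen1 had estimates below 0, at −0.031 (adjusted p = 0.992 from limma) and −0.10 (adjusted p = 0.966), while the other probe set of Fen1 had a difference of 0.71 and Cdc45 averaged over its probe sets one of 0.32.

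By role, the median estimate of KO against WT at day 4 was 0.61 for licensing, 0.43 for firing, 0.45 for the clamp and its loader, 0.47 for polymerases and primase, 0.24 for Okazaki fragment maturation, 0.64 for nucleotide supply, 0.30 for G1/S control and 0.50 for chromatin and histone supply. WT day 4 replicate 1 was the array with the lowest level, and when it was left out the median over the 40 genes was 0.40. Leaving out the other WT day 4 array, which held muscle genes, gave 0.68. All 6 endothelial markers had estimates above 0 at day 4, with a median of 0.60, and their sums, given above, did not overlap. Macrophage markers went the other way, with estimates below 0 for all 8, a median of −0.50 and sums between 130955 and 153929 in WT and between 104457 and 111828 in KO tumours. Leukocyte markers did too, with estimates below 0 for all 6 and a median of −0.39. None of these markers passed limma's test. Their part in the result was not tested.

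At day 6 the estimates of KO against WT lay closer to 0 than at day 4, a difference that the interaction did not show for any gene. None of the 40 genes passed, against 0.0154% of all tested genes, and the median log2 fold change of KO against WT was 0.15, with a range from −0.21 to 0.45 and a median of −0.010 over all genes. At an unadjusted p under 0.05, 2 of the 40 were higher and 0 lower, against 2.34% of all tested genes that were higher. Both KO arrays lay above both WT arrays for 11 genes, against 16.1% of all genes, and below them for 0, against 20.9%. The 11 were Orc1, Cdt1, Mcm6, Mcm7, Cdc45, Pcna, Pole, Pola1, Pola2, Lig1 and Rrm1. Leaving out WT day 6 replicate 2 gave a median of −0.074, and leaving out replicate 1 of that group gave 0.36, so that its sign rests on which WT array is kept.

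The largest estimates at day 6 were those of Cdc45, Pola2, Pole and Rrm2, whose signals on each array are given above. Cdc45 averaged 618 ± 136 (SD, n = 2) in tumours of WT hosts and 842 ± 29.5 (SD, n = 2) in those of KO hosts (log2 fold change 0.45, standard error 0.19, adjusted p = 0.776 from limma). Pola2 had 982 ± 211 (SD, n = 2) and 1334 ± 0.99 (SD, n = 2) (log2 fold change 0.45, standard error 0.19, adjusted p = 0.78 from limma). Pole and Rrm2 followed, with log2 fold changes of 0.36 (adjusted p = 0.877 from limma) and 0.33 (adjusted p = 0.864). The confidence intervals of Pole and Rrm2 held 0 (−0.30 to 1.03 and −0.22 to 0.87), and in Rrm2 the genotypes overlapped.

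**Figure D4:**
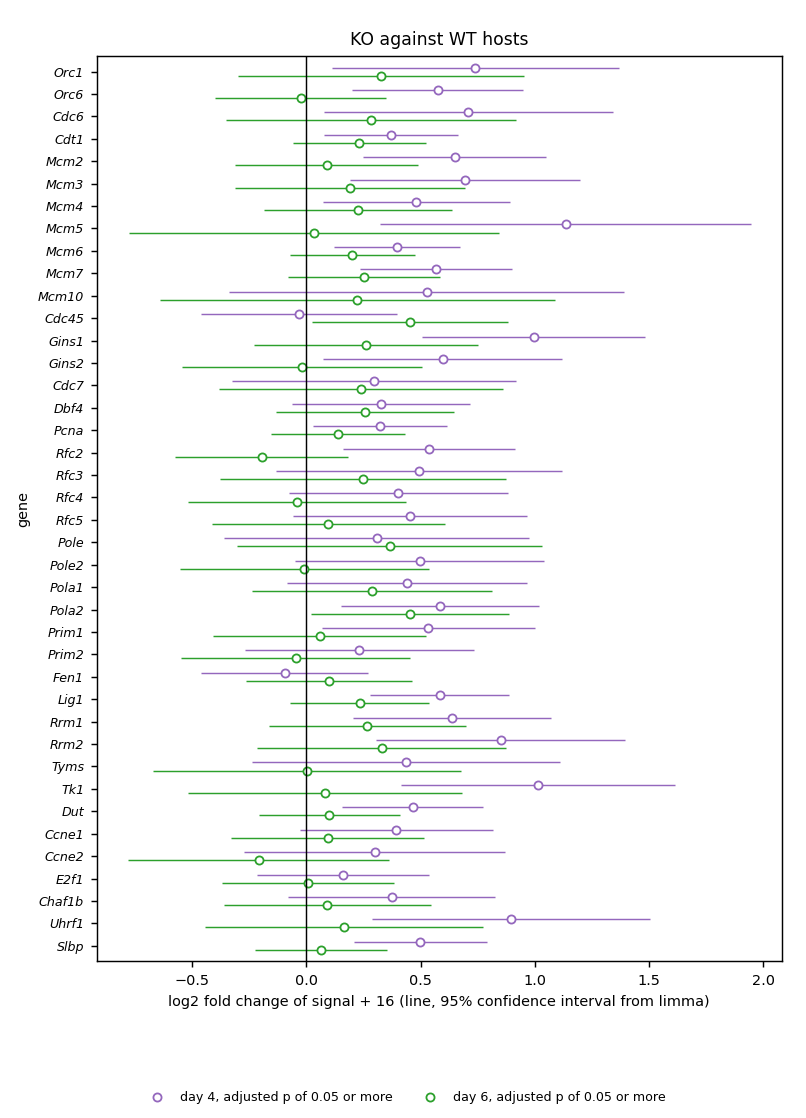
Points give the log2 fold change of signal + 16 in KO against WT hosts at day 4 (purple) and day 6 (green) for each replication gene, and lines the 95% confidence interval from limma. No point is filled, since none of the 40 genes passed at either day, and the day 4 estimates lie higher, with a median of 0.49 against 0.15.

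Over both days together, the estimate of KO against WT was above 0 for all 40 genes, with a median of 0.30, and 0 passed (smallest adjusted p 0.328 from limma), against 0.0308% of all tested genes. At an unadjusted p under 0.05, 21 of the 40 were higher, against 3.91% of all tested genes. The comparisons of genotype and of day share arrays: the WT day 4 arrays, low for these genes, enter both the rise with the day in WT hosts and the difference of KO from WT at day 4.

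Arrays of the same group also differed. WT day 6 replicate 1 lay above replicate 2 for all 40 genes, by a median of 0.44 on the log2 scale, and WT day 4 replicate 2 above replicate 1 for most, replicate 1 being the higher for 7 with a median difference of −0.40. The KO arrays were closer, with median differences of 0.042 at day 4 and 0.080 at day 6. The spread within the WT groups was thus close in size to the median difference of the genotypes at day 4.

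Other probe sets of the same genes gave a further reading. The 40 genes had 90 probe sets in all, and of the 50 not used above, 31 had a mean at or above the expression limit. Over both genotypes 27 of the 31 were higher at day 6, with a median of 0.87, and at day 4 27 of the 31 were higher in KO tumours, with a median of 0.48. These probe sets measure the same RNA on the same arrays, so that they check the probe set and not the tumour.

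A second list of 41 replication genes, among them the single-strand binding proteins, polymerase delta and the fork protection complex, moved in the same direction. Of its 40 tested genes, 29 rose over both genotypes, 17 in WT and 7 in KO hosts, and 0 fell, with medians of 0.70, 0.75 and 0.59. The shares of all tested genes that rose were 13.6%, 4.16% and 3.71%. Tipin, which holds polymerase and helicase together at the fork, had signals of 2750.4 and 2725 in WT and 3498 and 3760.4 in KO tumours at day 4, and 5889.8 and 5256 in WT and 6864 and 5816 in KO tumours at day 6. It rose in WT (log2 fold change 1.02, standard error 0.13, adjusted p = 0.014 from limma) and KO hosts (log2 fold change 0.80, standard error 0.13, adjusted p = 0.0211). Dnmt1, the maintenance methyltransferase, had log2 fold changes of 0.90 in WT (adjusted p = 0.0205 from limma) and 0.82 in KO hosts (adjusted p = 0.0252), and Clspn, an adaptor of the replication checkpoint, of 1.47 (adjusted p = 0.0179 from limma) and 1.03 (adjusted p = 0.0371).

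Mitosis genes, which follow S phase in the cycle, showed a like pattern over the arrays. Of 29 tested genes, 29 rose over both genotypes, 23 in WT and 12 in KO hosts, with medians of 1.13, 1.28 and 0.96, where 13.6%, 4.16% and 3.71% of all tested genes rose. Cdk1, the kinase of mitotic entry, had signals of 2178 and 2691 in WT and 3491 and 2917 in KO tumours at day 4, and 7104 and 5150.2 in WT and 6539.5 and 7331 in KO tumours at day 6. The rise passed in both WT (log2 fold change 1.32, standard error 0.18, adjusted p = 0.0169 from limma) and KO hosts (log2 fold change 1.11, standard error 0.18, adjusted p = 0.0222). KO against WT, 0 of the 29 passed at either day, with medians of 0.61 at day 4 and 0.28 at day 6. Relative to each gene's mean, the median level on WT day 4 replicates 1 and 2 was −1.16 and −0.59 for mitosis genes and −0.88 and −0.56 for replication genes, and on KO day 4 arrays −0.19 and −0.31 for mitosis and −0.16 and −0.20 for replication genes. At day 6 it was 0.75 and 0.11 in WT and 0.71 and 0.75 in KO tumours for mitosis genes, and 0.63 and 0.13 in WT and 0.53 and 0.51 in KO tumours for replication genes. The promoter letters differed between the lists, as 19 of 26 mitosis promoters held TTTGAA and 1 of 26 an E2F motif. As a group, carcinoma epithelium markers varied little between the days. The median level of 11 such markers lay between −0.20 and −0.049 on 7 arrays and at 0.50 on KO day 6 replicate 2, the array with skin genes. Over both genotypes 2 of the 11 rose and 1 fell, shares near the 13.6% and 9.56% of all tested genes, and the 3 are named after their values were seen. E-cadherin, Cdh1, rose from 210 and 277 in WT and 435 and 403 in KO tumours at day 4 to 2119 and 1203 in WT and 2440.4 and 2442 in KO tumours at day 6 (log2 fold change 2.57, standard error 0.18, adjusted p = 0.000671 from limma). Krt8 rose by less (log2 fold change 0.32, standard error 0.087, adjusted p = 0.0332 from limma) and Krt19 fell (log2 fold change −1.01, standard error 0.17, adjusted p = 0.00607).

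**Figure D5:**
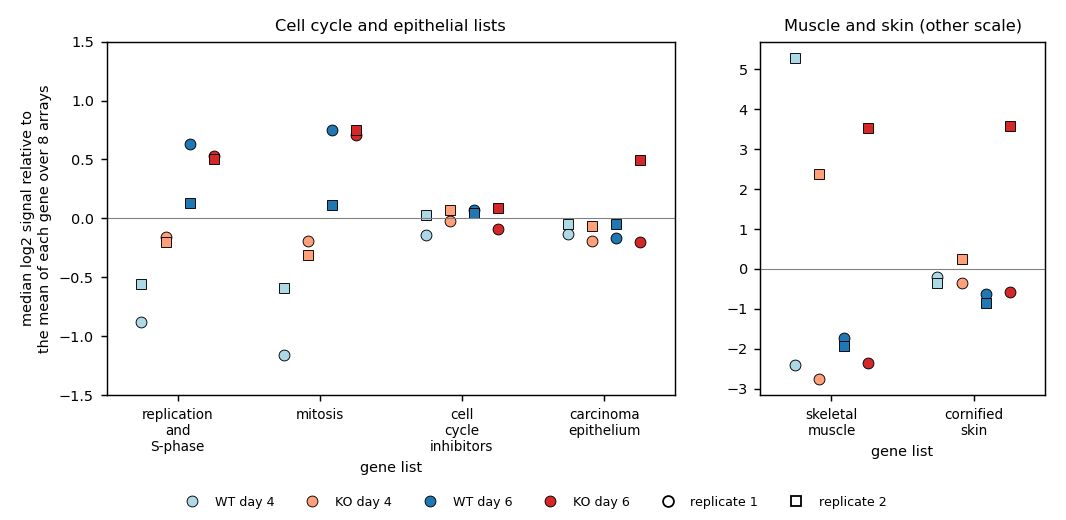
Each symbol is 1 array, placed at the median over a gene list of log2(signal + 16) minus the gene's mean over 8 arrays, with replication, mitosis, inhibitor and carcinoma epithelium lists on the left and muscle and skin lists on the right on another scale. Replication and mitosis genes are lowest on WT day 4 replicate 1, at −0.88 and −1.16, then on the other day 4 arrays and on WT day 6 replicate 2, with the remaining day 6 arrays close together, whereas the muscle list is high on 3 arrays and the skin list on KO day 6 replicate 2.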

How the data were processed

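Tumour RNA was measured on 8 Affymetrix MG-430_2.0 arrays, 2 in each of 4 groups of host genotype and day. The authors deposited signals as intensity on a linear scale, with 1 value for the probes of a set together. The submitters' processing notes name MAS5 without its version. This algorithm scales each array as a whole, so bright RNA of other tissue on an array can lower the remaining signals.

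Of 45101 probe sets, 34958 had 1 gene symbol in the platform annotation, 932 several and 9211 none. For each gene the probe set of highest mean log2(signal + 16) was kept, and a gene was tested if this mean reached 6.56, the 40th percentile over the whole array. limma 3.58.1 under R 4.3.3 fitted the 4 groups, with 4 residual degrees of freedom and a trend on the mean, in 7 comparisons, and Benjamini-Hochberg adjustment over all 12976 genes with a threshold of 0.05. Adding 16 makes the fold changes of dim genes too small. Precision is limited by having 2 arrays a group, and an exact permutation test of 2 arrays against 2 cannot go below p = 0.333.

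The genes and lists were chosen with earlier results of these data known. Signals of every array are given for the 12 called genes of smallest p, the gene of each role with the largest fold change between the days, and the 4 with the largest of KO against WT at day 6. Of the other lists, at most 3 called genes of smallest p are named. Alternatives were other normalizations, pseudocounts, filters and probe set rules, fits to the compared groups alone, without trend or with replicate numbers as blocks, leaving out arrays, and the methods' t-test. Replicate numbers were not used as pairs, since the labels do not say what a number shares.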

Additional observations from a re-analysis of the deposited data

How the results depend on the processing

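Of 40 genes, the count that rose from day 4 to day 6 changed with the test, the normalization, the probe set rule and the arrays kept. In KO hosts it was 25 with arrays centred on the median, 5 with the mean of all probe sets (39 genes), 30 with the compared groups alone, 0 without the trend and 4 without 2 arrays with muscle or skin genes. In WT hosts it was 0 with the compared groups alone and 0 without the trend. The methods' t-test gave 0 in WT, 0 in KO and 23 over both genotypes after Benjamini-Hochberg adjustment, and 11 in WT, 34 in KO and 10 for KO against WT at day 4 at its unadjusted threshold. For the t-test and for the compared groups alone, the share of all tested genes is not given here. Their counts therefore cannot be set against all genes. Without 3 arrays with muscle or skin genes the counts were 11, 0 and 23. These array sets and the unadjusted test were chosen after seeing the data. The median over both genotypes was 1.14 with centring and 0.74 with the mean of all probe sets. The median of KO against WT over both days was 0.45 without the 2 arrays, and 6 genes instead of 11 had both KO above both WT arrays at day 6 with the mean of all probe sets. The mean of all probe sets turned, between the days, Cdc45 (−0.58 in WT hosts, −0.23 over both), Orc1 (−0.43 in WT hosts, −0.067 over both), E2f1 (−0.27 in WT, −0.046 in KO, −0.16 over both), Pola2 (−0.10 in WT) and Slbp (−0.078 in KO hosts), and for KO against WT at day 4 Cdc45 (0.32), Fen1 (0.31), E2f1 (−0.12), Pola1 (−0.069), Dbf4 (−0.062) and Dut (−0.012). Centring turned Cdc45 at day 4 to 0.047. In KO hosts Rfc2 turned to −0.016 with quantile normalization, −0.051 without the 2 arrays or KO day 6 replicate 2 alone, and −0.044 without the 3. The cause was not tested.

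Leaving out each array in turn gave counts of rising genes from 0 to 31 in WT, 0 to 23 in KO and 27 to 37 over both genotypes. The medians between the days lay from 0.87 to 1.33 in WT, 0.72 to 0.80 in KO and 0.85 to 1.07 over both. Those of KO against WT lay from −0.074 to 0.36 at day 6, 0.40 to 0.68 at day 4 and 0.21 to 0.41 over both days, and that of the interaction from −0.57 to −0.14, each with 0 genes called. In KO hosts Gins2 lay between −0.029 and 0.41 and Prim2 between −0.031 and 0.19, both lowest without KO day 6 replicate 1 (Gins2 also −0.027 without KO day 4 replicate 1), and Rfc2 between −0.051 and 0.095. For KO against WT at day 4, Pole lay between −0.11 and 0.72, E2f1 between −0.066 and 0.39, Cdc7 between −0.059 and 0.65 and Mcm10 between −0.010 and 1.06, each lowest without WT day 4 replicate 1, and Cdc45 there lay between −0.077 and 0.014, the latter without KO day 4 replicate 2. A lone array left in a group was assumed to vary like the others. With the replicate number as a block, the counts were 22 in WT, 8 in KO and 34 over both genotypes. The deviations of same-numbered arrays correlated at 0.27 and −0.026 between genotypes at day 4 and day 6, and at −0.12 and 0.21 between the days in WT and KO hosts, so that the numbers were not taken as pairs, and with the WT numbers crossed the count in WT was 29.

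With centring, calls over all genes were 1623 higher and 161 lower in WT, from 540 and 216, and 1131 and 211 in KO hosts, from 482 and 327. Quantile normalization, pseudocounts of 1 and 64, testing all genes and a limit at the 60th percentile (38 genes) kept counts of 25 to 29 in WT, 12 to 18 in KO and 33 to 37 over both. Of 3596 values of the single genes under these alternatives, for the 40 genes between the days and at day 4 and for 4 genes at day 6, 2982 kept their direction and their side of the threshold, 475 no longer passed, 111 newly passed and 28 changed sign.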

Other observations

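Genes that drive or brake entry into S phase did not move as one group. Of 14 activators of the G1/S transition, 7 rose from day 4 to day 6 over both genotypes and 1 fell by limma, where 13.6% of all tested genes rose and 9.56% fell, with a median log2 fold change of 0.34. Ccna2, the cyclin of S phase and of mitotic entry, had signals of 1524 and 2318 in WT and 3309.7 and 3114 in KO tumours at day 4, and 6739 and 4856 in WT and 6705 and 6502 in KO tumours at day 6. All day 6 arrays lay above all day 4 arrays, and it rose in WT (log2 fold change 1.60, standard error 0.21, adjusted p = 0.0169 from limma) and KO hosts (log2 fold change 1.04, standard error 0.21, adjusted p = 0.0345). Cdc25a, the phosphatase that activates Cdk2, rose over both genotypes (log2 fold change 0.87, standard error 0.13, adjusted p = 0.00456 from limma), as did Skp2, which targets the inhibitor p27 for destruction (log2 fold change 0.97, standard error 0.17, adjusted p = 0.00688). The gene that fell was Ccnd2, a D cyclin (log2 fold change −0.35, standard error 0.079, adjusted p = 0.017 from limma). It was named because the count was 1.

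Of 17 cell cycle inhibitors, 5 rose and 2 fell over both genotypes, with a median of −0.11. Of all tested genes, 13.6% rose and 9.56% fell, and the number of inhibitors that fell is near that share. Those that rose were Rbl1, E2f7, E2f8, E2f6 and Cdkn2c, among them repressors of the E2F family that are themselves transcribed in S phase. Those that fell were Rb1 and Cdkn1b. Rbl1, a relative of the retinoblastoma protein, had signals of 1105 and 1426 in WT and 1676 and 1831 in KO tumours at day 4, and 2906 and 2342 in WT and 2978 and 2838 in KO tumours at day 6, with no overlap between the days (log2 fold change 0.89, standard error 0.12, adjusted p = 0.00306 from limma). Rb1, the retinoblastoma protein, had signals of 3080.4 and 3284 in WT and 2703 and 2668 in KO tumours at day 4, and 1785 and 2089 in WT and 1721 and 1762 in KO tumours at day 6. Every day 6 array lay below every day 4 array (log2 fold change −0.67, standard error 0.088, adjusted p = 0.00307 from limma). Cdkn1b, the inhibitor p27, had signals of 9859 and 7852 in WT and 9507 and 8158 in KO tumours at day 4, and 4768 and 7658 in WT and 3775 and 4082 in KO tumours at day 6 (log2 fold change −0.85, standard error 0.15, adjusted p = 0.00787 from limma). WT day 6 replicate 2, the day 6 array with the lowest replication genes, was the day 6 array with the highest Cdkn1b and lay close to the day 4 arrays. Cdkn1b was chosen after its values were seen. Whether these genes share a source with the replication genes was not tested.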
